A study of Mus musculus with 24 samples.

Results

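Molecular chaperones bind proteins that are unfolded or partly folded and help them to reach or regain their shape. Hsp70 proteins do so together with J proteins (the Dnaja, Dnajb and Dnajc genes), which deliver the client protein and stimulate ATP use, and with exchange factors such as the Hsp110 and Bag proteins. In skeletal muscle, small heat shock proteins associate with the contractile filaments, and chaperones of the endoplasmic reticulum (ER), which in a fibre is continuous with the sarcoplasmic reticulum, fold membrane and secreted proteins. Heat shock factor 1 induces many cytosolic chaperones when proteins unfold in the cytosol, and the unfolded protein response induces many ER chaperones.

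The chaperones and co-chaperones described here were taken by gene symbol. A probe was a member if its symbol on the platform started with HSPA, HSPB, HSPD, HSPE, HSPH, HSP90, DNAJA, DNAJB, DNAJC or PDIA. Symbols made of CCT or BAG and a digit were also taken, together with calreticulin (Calr), calnexin (Canx), Tcp1, Trap1, Cryab, Hsf1 and Hsf2. The rule gave 117 probes of 96 genes, out of 26423 probes and 17742 named genes. By textbook location, 64 genes (77 probes) belong to the cytosol or nucleus, 22 (27 probes) to the ER and 10 (13 probes) to mitochondria. The location is least certain for Dnajc22, counted with the ER, and for Dnajc4, counted with mitochondria. Hspa8, Hsp90aa1, Hspd1 and Cryab had no probe under these names and were not analysed here. Hspb11, Hspbap1 and Hspbp1 entered through their first letters and are not small heat shock proteins.

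The muscle studied was the tibialis anterior, at the front of the lower leg, taken at the age of 6 weeks from 8 mice of a C57BL6/J;129S1/SvImJ background. Its RNA was hybridised to 1-colour microarrays. The 4 mice called Hira CKO (conditional knockout) had the genotype Myf6 cre/+; Hira flox/-, and the 4 control mice had the genotype Myf6 cre/+; Hira flox/+. Both groups thus carried the Myf6 cre driver, which acts in muscle fibres, and a floxed Hira allele, so cells without cre also differ, by a null or an intact second allele. Hira encodes a chaperone of the histone variant H3.3, and the comparison asks which transcripts differ in muscle where it is deleted. RNA of each mouse was hybridised on 3 arrays, which were averaged, so that the mouse is the replicate and n = 4 in each group.

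The 24 arrays had medians between 431.5 and 433.5 after the authors' normalization, and precision is limited by how many arrays and animals there were. The Hira probe read 558 ± 38.9 in Hira CKO and 495 ± 48.9 in control muscle (SD, n = 4 each) (0.17 log2, limma adjusted p 0.193). An exact two-sided permutation test of the 4 against 4 animals gave p = 0.114, where 0.0286 is the smallest possible. The sources used here do not say whether this probe lies in the deleted stretch of Hira. If it does, a lower reading in Hira CKO would be looked for, and none was seen. If it does not, its level is no check of the genotype. Either way, every direction below rests on the group labels. The summed level of 6 measured fibre markers was 1083410 to 1159720 in Hira CKO and 1176270 to 1355280 in controls, and 2 of the 6, Acta1 and Ckm, were lower. The sum of 8 endothelial markers was 39274 to 44945 in Hira CKO and 52054 to 65104 in controls, and 4 of the 8 were lower. Of 7 immune markers 3 were higher (Cd3e, Itgam and Cd79b), the other 4 had differences below 0 and were not called, and the sums overlapped, at 4952 to 6418 in Hira CKO and 4718 to 6907 in controls. Of 5 smooth muscle and pericyte markers Rgs5 was lower (−1.11 log2). None of 7 fibroblast, 5 adipocyte and 4 nerve markers was called, against 21.2% of all named genes at their brightest probe, and no measured marker was at or below 0. The part of these shifts in the chaperone results was not tested, and in bulk RNA fewer cells of a type and less RNA per cell cannot be told apart. With neither slide nor scan day known, an array batch cannot be told apart from the groups.

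Differences are Hira CKO minus control on the scale log2(intensity + 16), and a probe was called when its limma p, adjusted over all 26423 probes, was under 0.05. Among the chaperones 13 probes were called higher and 14 lower in Hira CKO. These 27 calls are 23.1% of the 117 probes, against 20.6% of all probes on the array. The higher calls are set against 10.5% of all probes and the lower calls against 10.0%. The animals of the 2 groups did not overlap for 30 chaperone probes (25.6%), against 24.8% of all probes. These shares lie close to those of the whole array. The median difference was 0.02 log2 for the chaperones and 0.01 log2 for all probes, and the median size of a called difference was 0.48 against 0.45 log2. The calls fell on 25 genes, of which 13 were higher and 12 lower, and 71 genes had none. With a single array of each animal in place of the mean of 3, between 16 and 20 of the 27 calls were kept.

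Calls of both directions occurred in every compartment. In the cytosol 9 probes were higher and 9 lower of 77, in the ER 2 were higher and 3 lower of 27, and in mitochondria 2 were higher and 2 lower of 13. Called in either direction were thus 23.4%, 18.5% and 30.8%, against 20.6% of all probes on the array. In the plot by role, the higher cytosolic calls lay in the Hsp70 and Hsp110 group, the small heat shock proteins, the J proteins and the chaperonin. The lower cytosolic calls comprised 8 J protein probes and 1 Bag probe. Neither heat shock factor was called, and neither were Hsp90ab1, the 5 protein disulphide isomerases or the 3 other Hspb-prefixed genes. These groups are small, and no difference between them was tested.

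**Figure D1:**
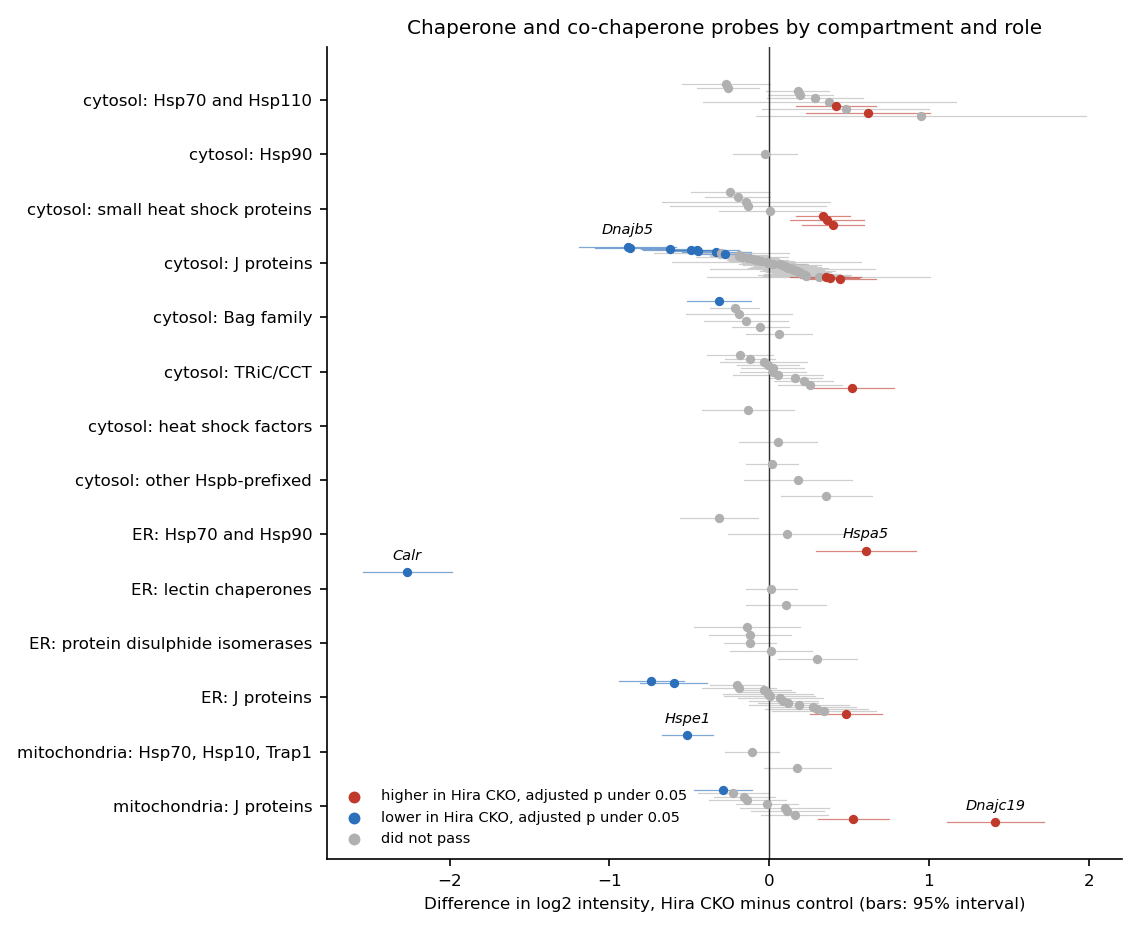
Difference in log2 intensity, Hira CKO minus control, for each of the 117 chaperone probes, grouped by compartment and role, with bars for the 95% interval (n = 4 animals a group). Calr at −2.26 and Dnajc19 at 1.42 lie far outside the other called probes, which lie between −0.89 and 0.62.

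The 6 ER chaperone genes whose promoters held an ER stress element are shown because they differed among themselves: Hspa5 was higher, Calr was lower and the others were not called. The element was searched as CCAAT and CCACG with 9 bases between them, on both strands, in RefSeq promoter windows of GRCm38.p6 running from 250 bases before to 50 bases after the annotated start. Such windows were found for 81 of the 96 genes. The element occurred in 6 of these 81 (7.41%), all of them among the 19 ER members, and in 37 of all 27025 genes with a window (0.137%). Capitals mark the element, which reads on the opposite strand in Calr and at the second match in Hsp90b1. A match is a description of letters and not a measured binding site.
Hspa5, chr2:34772010-34772058, plus strand: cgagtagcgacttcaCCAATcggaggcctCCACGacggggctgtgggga
Calr, chr8:84847060-84847108, minus strand: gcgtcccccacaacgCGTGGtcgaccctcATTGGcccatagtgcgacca
Hsp90b1, chr10:86705518-86705671, minus strand: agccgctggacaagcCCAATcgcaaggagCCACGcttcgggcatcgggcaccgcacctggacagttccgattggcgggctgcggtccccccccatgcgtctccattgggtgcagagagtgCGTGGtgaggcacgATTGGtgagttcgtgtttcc
Canx, chr11:50325785-50325833, minus strand: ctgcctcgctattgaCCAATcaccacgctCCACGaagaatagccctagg
Pdia6, chr12:17266476-17266524, plus strand: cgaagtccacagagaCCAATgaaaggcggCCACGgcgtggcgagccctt
Dnajc3, chr14:118937812-118937860, plus strand: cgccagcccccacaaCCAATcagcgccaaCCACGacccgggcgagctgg

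Calr encodes calreticulin, a lectin chaperone of the ER lumen that also buffers calcium. Its probe read 346, 365, 255 and 331 in Hira CKO animals 1 to 4, against 1382, 1669.8, 1851 and 1544 in control animals 1 to 4. The groups were far apart, and the highest Hira CKO animal lay well below the lowest control animal. Calr fell by 2.26 log2 (SE 0.125, 95% interval −2.54 to −1.99, limma adjusted p 4.84e-06), rank 29 by size among all 26423 probes. The call was kept in each of the 18 alternative analyses, with values from −2.50 to −2.14 log2. It rests on 1 probe. Of the 100 probes with neighbouring numbers on the array, 9 were called higher and 14 lower, and 2 fell by over 1 log2, against 1.13% of all probes. Canx, the membrane-bound partner of calreticulin in the folding of glycoproteins, was not called at either of its probes (0.10 log2, 95% interval −0.15 to 0.35, and 0.01 log2, −0.15 to 0.18).

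Hspa5 encodes BiP, the Hsp70 of the ER, which also binds the sensors of the unfolded protein response. It read 14508, 15473, 10354 and 15570.5 in Hira CKO animals, against 7831, 9513, 10179 and 8824 in controls. Hira CKO animal 3 lay just above the highest control, and the other 3 Hira CKO animals lay well above it. Hspa5 rose by 0.61 log2 (SE 0.139, limma adjusted p 0.0135), by 0.75 log2 without Hira CKO animal 3, and was not called with the first array of each animal alone (limma adjusted p 0.0598). Hsp90b1, the Hsp90 of the ER, averaged 5293 ± 997 in Hira CKO and 4908 ± 903 in controls (SD, n = 4 each), a difference of 0.11 log2 with a 95% interval of −0.26 to 0.47 that was not called. Hspa13, an Hsp70-like ATPase of microsomes, differed by −0.31 log2 and lay just outside the threshold (limma adjusted p 0.0708).

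The ER J proteins recruit BiP or, on the cytosolic face of the ER, cytosolic Hsp70. Of their 16 probes 1 was higher and 2 were lower (18.8% called, against 20.6% of all probes). Dnajb12, a membrane J protein that works in ER-associated degradation, read 2718, 2563, 2893 and 3228 in Hira CKO animals, against 5142, 4878, 4759 and 4267 in controls. The groups did not overlap, and Dnajb12 fell by 0.74 log2 (SE 0.0917, limma adjusted p 0.000542). Dnajb11, a luminal partner of BiP, had 3 probes, of which 1 was called. At that probe (PH_mM_0013494) it read 2050.4, 2530.2, 2122 and 2399 in Hira CKO animals, against 3237, 3365, 3896 and 3279 in controls. The difference there was −0.60 log2 (SE 0.095, limma adjusted p 0.00216), while the other Dnajb11 probes differed by 0.12 log2 (95% interval −0.07 to 0.31) and 0.07 log2 (−0.19 to 0.33). The 3 probes thus gave no common direction for Dnajb11.

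Dnajc22, for which no role is given here, was the higher one, at 354 ± 40.6 in Hira CKO and 249 ± 25.1 in controls (0.48 log2, SE 0.101, limma adjusted p 0.00929). Its call was lost with the first array of each animal alone (limma adjusted p 0.0593). The unfolded protein response targets Dnajb9 and Dnajc3, which assist or modulate BiP, were not called: Dnajb9 differed by 0.30 log2, and the 2 Dnajc3 probes by 0.27 and −0.19 log2. Among the protein disulphide isomerases, which form and rearrange disulphide bonds, differences ran from −0.14 log2 for Pdia4 to 0.30 log2 for Pdia3, and none was called.

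Other genes of ER folding and quality control came from a list of 28, of which 26 were measured. At the brightest probe of each, 2 were higher and 3 lower in Hira CKO, or 19.2%, against 21.2% of all 17742 named genes taken in the same way. Sil1, the nucleotide exchange factor of BiP, read 3501, 3557, 3237 and 3334 in Hira CKO animals, against 6078, 5670.4, 6308 and 4868 in controls, and fell by 0.74 log2 (SE 0.0908, limma adjusted p 0.000494). Erp44, a thiol chaperone of the early secretory pathway, fell by 0.57 log2, and Manf, a secreted protein induced by ER stress, by 0.45 log2. Mbtps1, the protease that activates ATF6, rose by 0.38 log2, and Ero1a, the oxidase that regenerates disulphide isomerases, by 0.26 log2. The sensors of the unfolded protein response were not called, with differences of 0.06 log2 for Atf6, 0.003 log2 for Ern1 and 0.31 log2 for Eif2ak3 (95% interval 0.04 to 0.57, limma adjusted p 0.0935). Xbp1, the factor activated by Ern1, differed by −0.04 log2 and was not called.

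**Figure D2:**
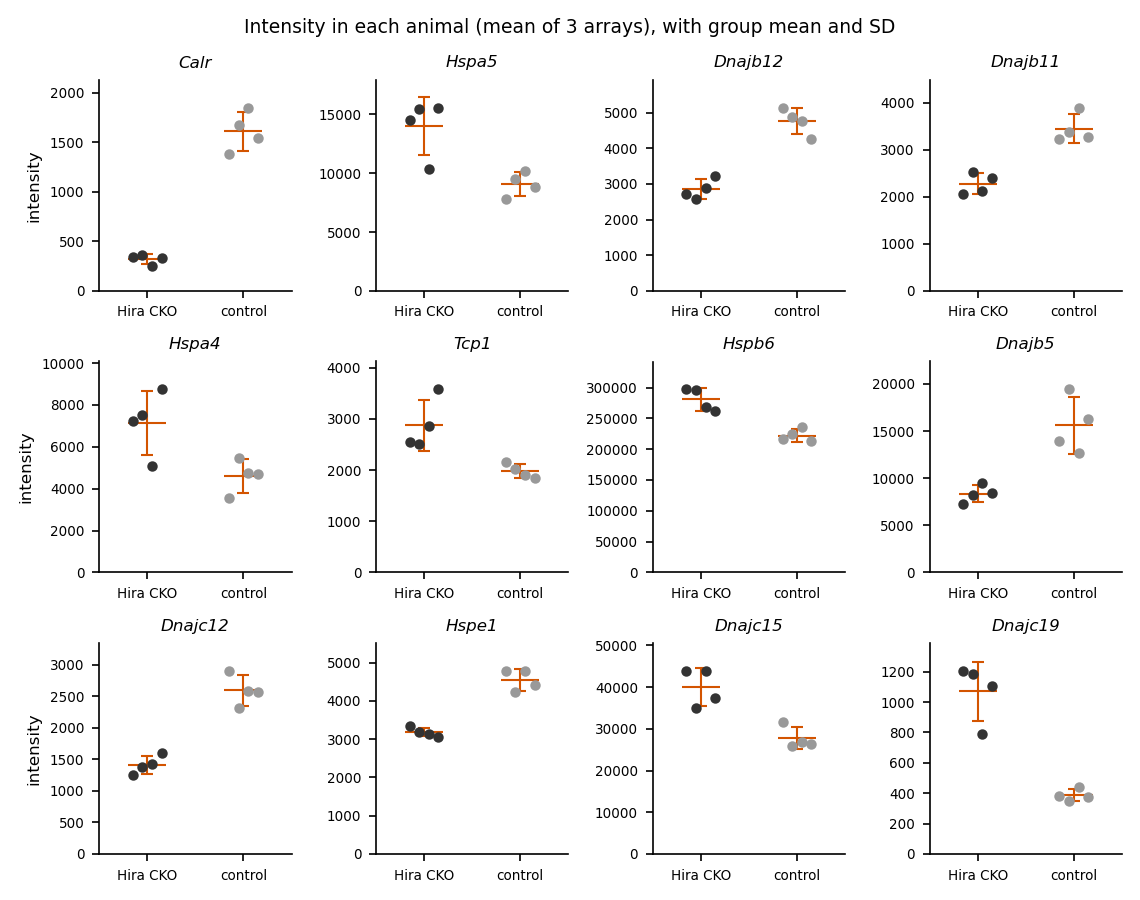
Intensity in each animal (points, mean of 3 arrays) for 12 called chaperone genes, Hira CKO left and control right, with lines for the group mean and SD (n = 4 each). The groups overlap for Hspa4, where Hira CKO animal 3 (5088) lies below control animal 2 (5464), and do not overlap for the other 11 genes.

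In the cytosolic Hsp70 and Hsp110 group, 2 of 10 probes were higher and none lower (20.0% called, against 20.6% of all probes). Both belong to the Hsp110 family, which act as nucleotide exchange factors of Hsp70. Hspa4 read 7254, 7511, 5088 and 8764 in Hira CKO animals, against 3534, 5464, 4753 and 4699 in controls. The groups overlapped through Hira CKO animal 3 and control animal 2, and the difference was 0.62 log2 (SE 0.174, limma adjusted p 0.0318). The call of Hspa4 was lost without Hira CKO animal 1, 2 or 4 and without control animal 1, 3 or 4 (limma adjusted p 0.057 to 0.0783, differences 0.50 to 0.64 log2), and with the first or second array of each animal alone. Hspa4l averaged 1544 ± 210 in Hira CKO and 1150 ± 112 in controls (SD, n = 4 each), and rose by 0.42 log2 (SE 0.113, limma adjusted p 0.0276). Its call was lost without Hira CKO animal 1, 2 or 4 and without control animal 3 or 4 (limma adjusted p 0.0591 to 0.0769), and with the first or second array of each animal alone. Hsph1, the remaining member of this family on the array, differed by 0.29 log2 (95% interval −0.02 to 0.59) and was not called.

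Hspa1a and Hspa1b, the stress-inducible Hsp70 genes, are near-identical copies, so that the split of signal between their probes is uncertain. Hspa1a read 308, 331, 1585 and 526 in Hira CKO animals, against 179, 220.0, 396 and 352 in controls. Hira CKO animal 3 stood apart, and of the other Hira CKO animals only animal 4 lay above every control. The difference for Hspa1a was 0.95 log2 (SE 0.464, limma adjusted p 0.175), and 0.44 log2 without Hira CKO animal 3. It was not called, but was when all 24 arrays were fitted with the animal as a random block (limma adjusted p 0.0225). That fit used the same correlation between arrays of an animal for every probe (0.401). It can therefore understate the spread between animals at a probe where they differ as widely as here. Hspa1b read 1147, 1249, 4109 and 1927 in Hira CKO animals, against 1066, 1319, 1899.8 and 1483 in controls, and differed by 0.38 log2, or −0.01 log2 without Hira CKO animal 3. The remaining Hsp70 genes ran from −0.27 log2 for Hspa12b to 0.48 log2 for Hspa12a, and none of them was called. Hsp90ab1, the constitutive cytosolic Hsp90, read 43443 to 57187 in Hira CKO animals and 49573 to 52005 in controls, a difference of −0.03 log2 (95% interval −0.23 to 0.17).

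Of the small heat shock proteins, ATP-independent holdases of which several are abundant in muscle, 3 of 8 probes were higher and none lower. That is 37.5% called, against 20.6% of all probes, in a small group whose difference from the array was not tested. Hspb6 (Hsp20) read 297637, 295703, 267763 and 262396 in Hira CKO animals, against 215874, 223846, 235420.0 and 212511 in controls. All Hira CKO animals exceeded all controls, and Hspb6 rose by 0.34 log2 (SE 0.0754, limma adjusted p 0.0123). Hspb1 (Hsp25 in the mouse), which binds actin filaments, read 8852, 7944, 7968 and 7576 in Hira CKO animals, against 5854, 5357, 6705 and 7222 in controls, and rose by 0.36 log2 (SE 0.104, limma adjusted p 0.034). The call of Hspb1 was lost without Hira CKO animal 1, 2 or 3 and without control animal 1 or 2 (limma adjusted p 0.0601 to 0.0921). Hspb9, known chiefly from testis, rose by 0.40 log2, at 1255 ± 18.3 in Hira CKO and 956 ± 105 in controls (SD, n = 4 each). The muscle-enriched Hspb2 (−0.20 and 0.01), Hspb3 (−0.24), Hspb7 (−0.13) and Hspb8 (−0.14 log2) were not called. In 3 further fits that each took a single array of every animal, Hspb6, Hspb9 and Hspb1 were each called only in 1, and the difference for Hspb1 was as low as 0.17 log2.

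The heat shock element, searched as GAANNTTC or TTCNNGAA, which may overlap each other, occurred in 20 of the 81 chaperone promoter windows (24.7%) and in 17.0% of all 27025. It was in 18 of 55 cytosolic members (32.7%), 1 of 19 ER members and 1 of 7 mitochondrial members, and no member held both elements. Of members with a window, 2 of 11 with a higher probe, 1 of 10 with a lower probe and 17 of 60 with no call held it. The windows below belong to the 3 called genes with the element and to the Hspa1a and Hspa1b pair, whose printed stretches are identical. Capitals mark the elements, which overlap in Hspe1.
Hspb6, chr7:30553166-30553203, plus strand: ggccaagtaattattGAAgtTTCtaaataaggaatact
Hspb1, chr5:135887787-135887844, plus strand: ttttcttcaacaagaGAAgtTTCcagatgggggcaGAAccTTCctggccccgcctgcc
Hspe1, chr1:55088044-55088091, plus strand: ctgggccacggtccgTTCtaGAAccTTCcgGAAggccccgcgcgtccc
Hspa1a, chr17:34972238-34972275, minus strand: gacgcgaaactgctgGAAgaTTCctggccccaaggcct
Hspa1b, chr17:34959320-34959357, minus strand: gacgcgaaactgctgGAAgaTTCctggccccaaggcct

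**Figure D3:**
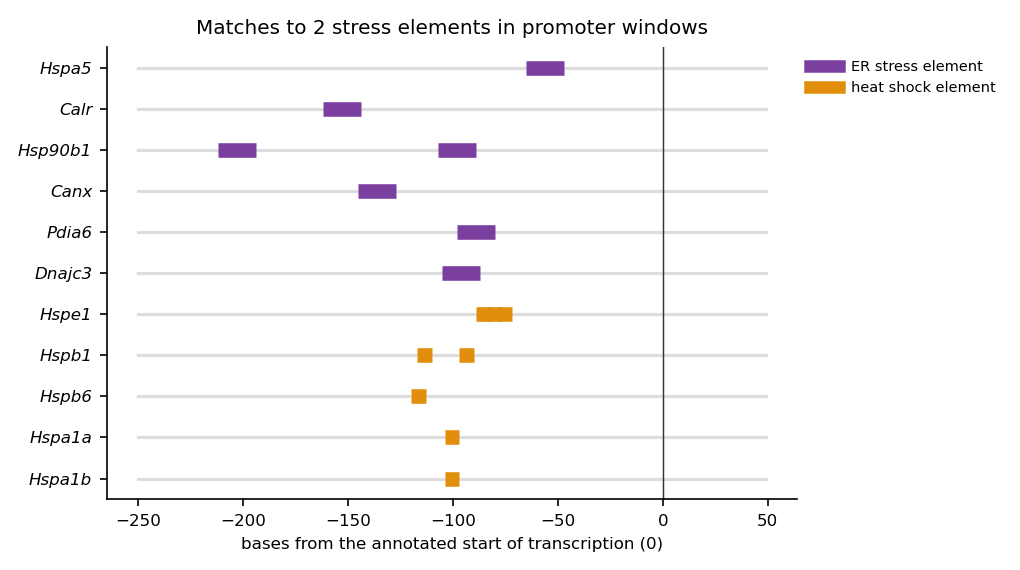
Positions of ER stress elements (purple) and heat shock elements (orange) relative to the annotated start of transcription, in bases, for the 11 genes whose sequences are printed. The ER element lies at different distances in the 6 ER genes, among them Hspa5 (called higher) and Calr (called lower), and Hspe1 (called lower) holds 3 overlapping heat shock elements.

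The cytosolic J proteins were the largest group, with 36 probes of 26 genes, of which 3 probes were higher and 8 lower. Their share of called probes was 30.6%, against 20.6% of all probes, a difference that was not tested. Dnajb5, a cytosolic J protein related to Dnajb1, read 7262, 8256, 9487 and 8465 in Hira CKO animals, against 13991, 19459, 12618 and 16308 in controls. No Hira CKO animal reached a control, and Dnajb5 fell by 0.89 log2 (SE 0.136, limma adjusted p 0.00179). Dnajb1 itself, a heat-inducible partner of Hsp70, read 2364, 2174, 2095 and 3119.8 in Hira CKO animals, against 2462, 2396, 4272 and 3072 in controls, and was not called (−0.30 log2, 95% interval −0.72 to 0.12).

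Dnajc12, a partner of Hsp70 in the folding of aromatic amino acid hydroxylases, was lower at both of its probes. At one (PH_mM_0012658) it read 1246, 1379, 1421 and 1599 in Hira CKO animals, against 2905, 2316, 2573 and 2561 in controls, a fall of 0.87 log2 (SE 0.097, limma adjusted p 0.000297). At the other (mMC003121) it read 7025, 6548, 6874 and 7035 in Hira CKO animals, against 9107, 10051, 9268 and 9066 in controls, a fall of 0.45 log2 (SE 0.0682, limma adjusted p 0.00174). Neither probe showed overlap of the groups. Both calls were kept in all 18 alternatives, and Dnajc12 was the only chaperone gene with several probes for which every probe kept its call throughout.

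Dnajc21, needed for the maturation of the large ribosomal subunit in human cells, had 1 of 2 probes called. That probe (mMC025234) read 3961, 4251, 3756 and 3919 in Hira CKO animals, against 6133, 5373, 6544 and 6396 in controls. The groups did not overlap there, with a fall of 0.62 log2 (SE 0.0826, limma adjusted p 0.000813), while the other Dnajc21 probe differed by −0.13 log2 (95% interval −0.32 to 0.05). Dnajc17, a J protein associated with splicing in human cells, averaged 556 ± 41.5 in Hira CKO and 766 ± 32.8 in controls (SD, n = 4 each) and fell by 0.45 log2 (SE 0.0762, limma adjusted p 0.00294).

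Dnajc7 and Dnajb2 were called with less margin. Dnajc7, a tetratricopeptide protein that binds Hsp70 and Hsp90, read 14899, 12437, 14133 and 10261 in Hira CKO animals, against 21885, 15464, 17049 and 17814 in controls, and fell by 0.49 log2 (SE 0.135, limma adjusted p 0.0296). Its call was lost without Hira CKO animal 2 or 4 and without control animal 1, 3 or 4 (limma adjusted p 0.0546 to 0.0702). Dnajb2, which carries ubiquitin-interacting motifs, fell at both of its probes, by 0.33 and 0.28 log2 (limma adjusted p 0.0373 and 0.0263). The first of these calls was lost in 6 of the 8 fits without 1 animal, all but those without Hira CKO animal 3 or control animal 4 (limma adjusted p 0.0662 to 0.0998). The second was lost without Hira CKO animal 1 or 3 and without control animal 1 or 2 (limma adjusted p 0.0545 to 0.074).

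Dnaja2, a general partner of Hsp70, was called higher at 1 of 2 probes. There it read 4526, 4911, 4716 and 4519 in Hira CKO animals, against 4181, 3082, 3395 and 3157 in controls (0.44 log2, SE 0.1, limma adjusted p 0.0126). At its other, brighter probe the groups overlapped and the difference was 0.11 log2 (95% interval −0.12 to 0.33). That probe read 19570 ± 1276 in Hira CKO and 18210 ± 2236 in controls (SD, n = 4 each). The remaining higher calls belonged to J proteins known chiefly from testis. Dnajb13, a protein of sperm flagella, read 183 ± 11.3 in Hira CKO and 137 ± 12.9 in controls (SD, n = 4 each), a difference of 0.38 log2 that was not called with the second array of each animal alone (limma adjusted p 0.209). Dnajc5b, a relative of the cysteine string protein, was called at 1 of 2 probes (0.35 log2, limma adjusted p 0.0319), at 25.0 ± 6.23 in Hira CKO and 15.2 ± 1.79 in controls, which lies near the added 16. The difference was 0.60 log2 with a pseudocount of 1 and 0.19 log2 with one of 50, where the call was lost (limma adjusted p 0.0756). It was also lost with all 24 arrays fitted (limma adjusted p 0.15), with any single array of each animal, without Hira CKO animal 1 or 4 and without control animal 1, 2 or 3 (limma adjusted p 0.0601 to 0.0867).

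Among the Bag proteins, which release clients from Hsp70, only Bag4 was called, at 1 of 2 probes. That is 1 of 6 Bag probes (16.7%, against 20.6% of all probes). The called probe fell by 0.31 log2 (limma adjusted p 0.033), at 688 ± 70.2 in Hira CKO and 857 ± 54.0 in controls (SD, n = 4 each). The other Bag4 probe differed by −0.21 log2 without overlap of the groups and lay just outside the threshold (limma adjusted p 0.0523). The call was lost without Hira CKO animal 1, 2 or 3 and without control animal 2 or 3 (limma adjusted p 0.0533 to 0.095). Bag3, the muscle co-chaperone that works with Hspb8 in the removal of damaged filament proteins, differed by 0.06 log2 (95% interval −0.14 to 0.27).

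The chaperonin TRiC, also named CCT, is a ring of 8 kinds of subunit that folds actin and tubulin. Of its 11 probes, which include the related genes Cct6b and Cct8l1, 1 was called (9.09%, against 20.6% of all probes). Tcp1, the alpha subunit, read 2541, 2504, 2859 and 3585 in Hira CKO animals, against 2156, 2016, 1904 and 1837 in controls. The groups did not overlap, and Tcp1 rose by 0.52 log2 (SE 0.116, limma adjusted p 0.0118). The other ring subunits ran from −0.18 log2 for Cct3 to 0.25 log2 for Cct2, and the groups did not overlap for Cct2 (limma adjusted p 0.0712).

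Hsf1, the main transcription factor of the heat shock response, averaged 5388 ± 922 in Hira CKO and 5877 ± 733 in controls (SD, n = 4 each), a difference of −0.13 log2 (95% interval −0.42 to 0.15). Hsf2 averaged 1021 ± 119 in Hira CKO and 981 ± 119 in controls, a difference of 0.06 log2 (95% interval −0.19 to 0.30). Neither was called, and the transcript of a factor does not report its activity. Among 18 measured cytosolic co-chaperones outside the symbol rule, from a list of 21, 2 were higher and 1 lower (16.7%, against 21.2% of all named genes). Unc45b, the myosin chaperone of striated muscle, read 5004, 4677, 6029 and 5627 in Hira CKO animals, against 3923, 4059.97, 3526 and 3270.03 in controls, and rose by 0.53 log2 (SE 0.103, limma adjusted p 0.00644). Cdc37, which brings kinases to Hsp90, rose by 0.42 log2, and Fkbp4, a partner of Hsp90 in steroid receptor complexes, fell by 0.35 log2.

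In mitochondria, Hsp60 and Hsp10 form the folding chamber of the matrix, and the J protein Dnajc19 belongs to the import motor of the inner membrane, as known from human and yeast cells. Hspe1 (Hsp10) read 3336, 3195, 3135 and 3070.1 in Hira CKO animals, against 4770.4, 4229.8, 4796 and 4407 in controls. The groups did not overlap, and Hspe1 fell by 0.51 log2 (SE 0.0714, limma adjusted p 0.00104), a call kept in all 18 alternatives. Hspa9, the mitochondrial Hsp70, differed by 0.18 log2 (95% interval −0.03 to 0.39) and Trap1, the mitochondrial Hsp90, by −0.11 log2 (−0.27 to 0.06), and neither was called.

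Dnajc19 had 2 probes that differed in their result. At PH_mM_0012362 it read 1207, 1184, 789 and 1105 in Hira CKO animals, against 378, 346, 441 and 377 in controls. Every Hira CKO animal exceeded every control by a wide margin, and the difference was 1.42 log2 (SE 0.136, limma adjusted p 0.000122), the largest called rise among the chaperones and rank 48 among all rises. At PH_mM_0004825 it read 2588, 2885, 3054 and 2465 in Hira CKO animals, against 2172, 2455, 2507 and 2668 in controls. There the groups overlapped, and the difference was 0.16 log2 (95% interval −0.05 to 0.37). The sources used here do not say which transcripts each probe detects. Dnajc15, a related inner membrane J protein that restrains respiratory complex I in the mouse, read 43982, 35084, 43885 and 37368 in Hira CKO animals, against 31694, 25861, 26939.7 and 26435 in controls. It rose by 0.53 log2 (SE 0.0995, limma adjusted p 0.00549), a call lost with the third array of each animal alone (limma adjusted p 0.148).

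Dnaja3, a matrix partner of Hspa9, was called at 1 of 3 probes (−0.29 log2, limma adjusted p 0.0325), and its other probes differed by −0.15 and −0.14 log2. The call was lost without Hira CKO animal 1 or 4 and without control animal 1 or 3 (limma adjusted p 0.0667 to 0.0879), and with any single array of each animal. Of 12 measured genes of mitochondrial import and protein quality, from a list of 17, 2 were higher and 1 lower (25.0%, against 21.2% of all named genes). Grpel2, an exchange factor of Hspa9, rose by 0.38 log2 and Timm44, which tethers Hspa9 to the import channel, by 0.31 log2, while the import receptor Tomm70a fell by 0.23 log2.

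Of the 96 genes, 17 had 2 probes and 2 had 3. Of these 19 genes 9 had a called probe, and a gene with more probes has more chances of a call. By probe, 11 of their 40 were called (27.5%, against 20.6% of all probes). For 7 of the 9 genes another probe of the same gene was not called, and of these 7 only Dnajb11 had probes of both signs. The brightest probe was called for Bag4 and Dnajb11, and not for Dnaja2, Dnaja3, Dnajc19, Dnajc21 and Dnajc5b. All probes had the same sign for 14 of the 19. A single probe carried the call for 16 of the 77 genes that had only 1 (20.8%, against 20.6% of all probes). No second probe of these genes, Calr and Hspa5 among them, was available as a check.

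**Figure D4:**
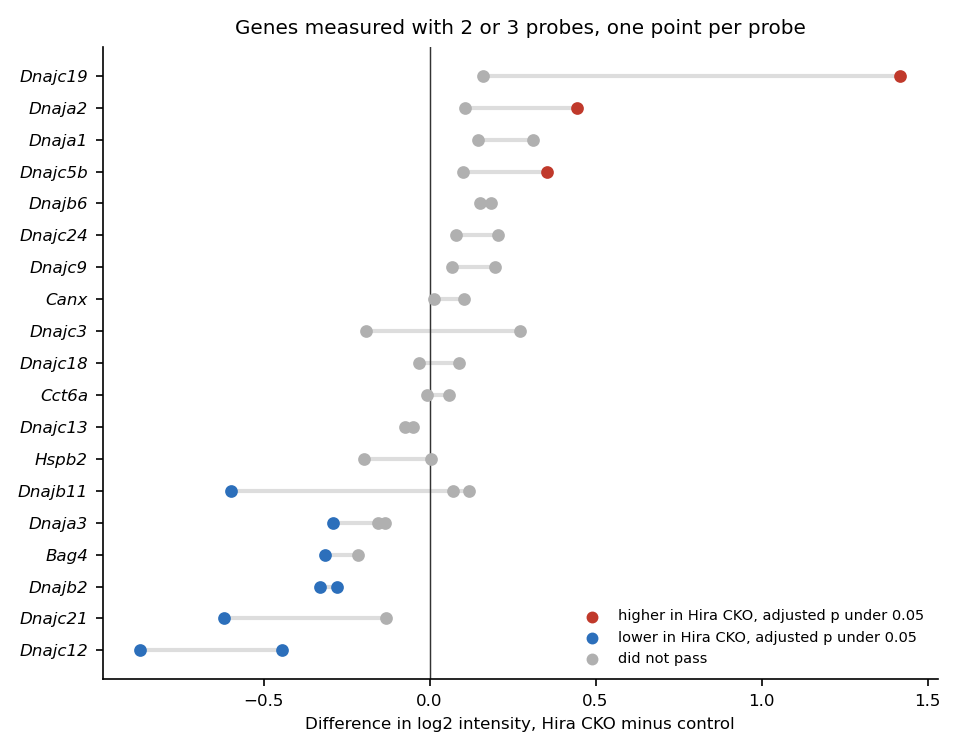
Difference in log2 intensity, Hira CKO minus control, for the 19 chaperone genes with 2 or 3 probes, with a point for each probe and a grey line joining probes of a gene. Every probe was called only for Dnajb2 and Dnajc12, and the 2 Dnajc19 probes lie at 1.42 and 0.16.

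Several ER chaperones were low or high together in single animals, a pattern seen after the values were known and given as a description. Hira CKO animal 3 was the lowest of its group at 12 of the 27 ER probes (44.4%), against 25.8% of all probes, and control animal 1 was the lowest of its group at 12 (44.4%), against 27.8%. At the 8 probes of the 6 genes with an ER stress element, Hira CKO animal 3 was lowest at 6 (75.0%) and control animal 1 at 5 (62.5%). Hira CKO animal 4 was the highest of its group at 13 ER probes (48.1%, against 27.8% of all probes), and control animal 3 at 12 (44.4%, against 23.2%). Outside the ER, Hira CKO animal 4 was highest at 39.0% of cytosolic and 7.69% of mitochondrial probes. Hira CKO animal 3 was lowest at 27.3% of cytosolic and 38.5% of mitochondrial probes. Hira CKO animal 3 also had the highest Hspa1a and Hspa1b of all 8 animals, and the lowest Dnajb1. Leaving out Hira CKO animal 3 gave 15 higher and 13 lower of the 117 chaperone probes, and kept 24 of the 27 calls. Of all probes on the array, 8.81% were then higher and 8.83% lower. The calls of Bag4, of Hspb1 and of 1 Dnajb2 probe were lost, and Pdia3 (0.39), Hspb11 (0.49), 1 of 2 Dnajc24 probes (0.30) and Dnajb4 (−0.30 log2) were called.

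**Figure D5:**
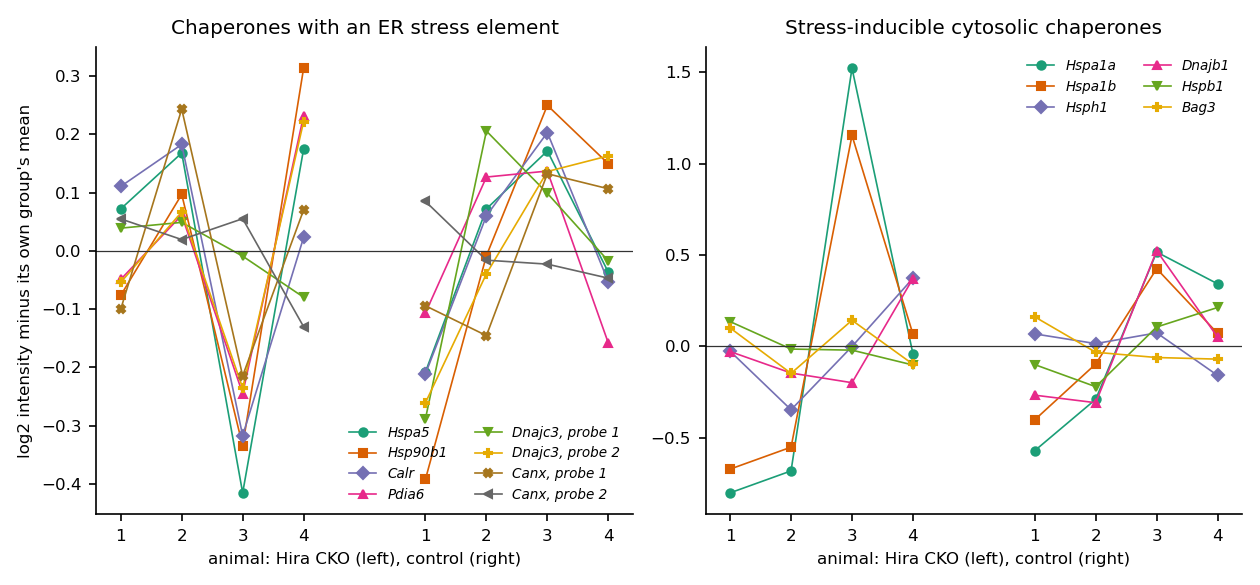
Deviation of each animal from its own group mean, in log2 intensity, for the 8 probes of the 6 genes with an ER stress element (left panel) and for 6 stress-inducible cytosolic chaperones (right panel), Hira CKO animals left of control animals in each. Lines join the animals of a group at a probe only to guide the eye. Hira CKO animal 3 is lowest at 6 of the 8 ER probes and highest for Hspa1a and Hspa1b.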

How the data were processed

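Each of 24 arrays, 3 for each of 8 mice, carried Cy5-labelled RNA, 5 micrograms per the labels' protocols, extracted from frozen muscle with Trizol. The deposited value of a probe on an array is an intensity on a linear scale, for 26423 probes. As judged from these values they had been background-subtracted (50 values lay at or below 0) and quantile-normalized. The sources used here name no scanner, software or genome build. Probes were named from the platform annotation (20377 with 1 symbol, 6046 unnamed), updated with RefSeq GRCm38.p6 symbols, and all 117 member symbols were current.

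Negative intensities were raised to 0, and log2 was taken after adding a pseudocount of 16, so changes at low intensity are understated. The mean over an animal's 3 arrays was used, and 4 Hira CKO animals were compared with 4 control animals in R 4.3.3 with limma 3.58.1 (lmFit, eBayes) and Benjamini-Hochberg adjustment over all probes. Overlap was judged on these log2 animal means. A gene's brightest probe has the highest mean over all animals. The script was tested on simulated data. Figures were drawn with matplotlib 3.10.9.

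The members and lists were chosen with earlier results of these data known. Genes were named by rule: every member with a called probe, members whose probes differed in call, Hsf1, Hsf2 and a list of stress-inducible chaperones. From each list of other ER, cytosolic and mitochondrial genes, up to 4 called genes with the largest change were named. Ero1a went beyond that limit in the ER list. Called cell type markers were named except the 4 endothelial ones. Other members named as lying at the ends of a group's range or near the threshold, and Xbp1, Atf6, Ern1 and Eif2ak3, were chosen after their values were seen. Alternatives were other pseudocounts, a filter on dim probes, cyclic loess, other variance settings, array-level fits, an animal-number block and each animal left out.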

Additional observations from a re-analysis of the deposited data

Results flagged for a closer look

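Within a group of 4 animals, 2 of 94 tested sets of values held an animal far from the other 3. In independent sets chance gives about 1 in 20. These sets share the same 8 animals, and many belong to probes named because they were called, so the count cannot be measured against that rate. Bag3 read 11912.6 in control animal 1, against 10102.6 to 10368.8 in the other controls, and its difference between the groups was not called. Dnaja3 read 19666.9 in control animal 1 at a probe that was not called (mMC020824), against 14252 to 14638 in the other controls. Without control animal 1 the difference at that Dnaja3 probe was −0.03 log2, against −0.14 log2 with it.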

How the results depend on the processing

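Of the 27 called chaperone probes, 12 were called in all 18 alternatives (Calr, Dnajb12, 1 Dnajb11 probe, Dnajb5, both Dnajc12 probes, Dnajc21, Dnajc17, Dnaja2, Tcp1, Hspe1 and Dnajc19), and 18 in all 8 fits without 1 animal. The counts did not always move with those of the whole array. Counts here are out of the 117 chaperone probes, and each percentage is the share of all array probes called in the same direction. Without Hira CKO animal 3, 15 chaperone probes were higher (8.81% of all probes), against 13 in the main analysis (10.5% of all). With all 24 arrays fitted and the animal as a random block, 20 chaperone probes were higher (13.6% of all probes) and 20 lower (13.8% of all), against 13 and 14 in the main analysis. The higher count was 8 with the first array of each animal (5.76% of all probes) and 7 with the second (4.8% of all). Without 1 animal 10 to 15 were higher (6.97% to 9.97% of all probes) and 10 to 13 lower (6.88% to 9.46% of all). For uncalled probes near 0 the sign changed: with the second array of each animal, Hsf2 was −0.041 and Canx (mMC005431) −0.0472 log2, and with the third, Bag3 was −0.065, Dnajb11 (PH_mM_0016276) −0.11, Dnajc5b (PH_mM_0007580) −0.0123 and Hsf1 0.0264 log2. Without 1 animal, ranges crossed 0 for Canx (−0.0038 to 0.058), Dnajb11 (−0.0221 to 0.15), Hsf2 (−0.0162 to 0.14), Hsp90b1 (−0.0215 to 0.22) and Hspa1b (−0.0082 to 0.60 log2). With animal number as a block, 14 probes were higher (9.48% of all probes) and 11 lower (9.16% of all), and 23 of the 27 calls were kept. Hspa1a was then called (limma adjusted p 0.0299), and Bag4, Dnaja3, Hspb1 and 1 Dnajb2 probe were not. Deviations of same-numbered animals correlated at 0.296, 0.093, −0.0643 and 0.0673, and those of animals with different numbers at −0.213 to 0.173. So few values can neither show nor exclude a pairing by number. Background correction on scanner signals and slide as a block were not run, since no scanner column or slide was given. No detection call was given, so probes near background were kept.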
